A study of Mus musculus with 17 samples.

Results

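The genes described here are 8 metabolic genes that the study labelled in its display of transcripts lower in Bap1-deficient osteoclast precursors, namely Nipsnap1, Gatm, Pcyt1b, Prelid3a, Fabp7, B4galt4, Gcnt1 and Gbgt1. They are 8 of the 41033 genes analysed, and all 8 passed the filter on low counts before and after RANKL. Because they were chosen on the genotype difference after RANKL, their values there are given as a description with no test. The comparison that took no part in that choice is the one between the genotypes before RANKL, in bone marrow macrophages (BMMs), and the text turns on it. Its libraries share replicate numbers with some of the libraries after RANKL, so the choice may not be fully independent of it.

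By the study's methods, Bap1LysM mice (also written Bap1ΔLysM) are Bap1 flox/flox and carry 1 LysM-Cre allele. This allele places Cre recombinase in the lysozyme M gene (Lyz2) and deletes Bap1 in myeloid cells. Bap1flox controls are Bap1 flox/flox littermates without Cre, so the loxP sites are in both groups and the Cre allele is in the Bap1LysM group alone. BMMs were grown in M-CSF, and osteoclast precursors (preOCs, labelled OC) were BMMs given M-CSF with RANKL at 100 ng/ml for 24 h. Poly(A) RNA was sequenced from 3 BMM libraries of each genotype, 6 Bap1flox preOC libraries and 5 Bap1LysM preOC libraries. The preOCs came from 20-week-old male mice, while the age and sex behind the BMM libraries are not given in the sources used here. The labels do not say whether BMM replicates are separate mice, so p-values measure only the spread between these libraries.

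BAP1 is a nuclear deubiquitinase that removes ubiquitin from histone H2A, and RANKL is the cytokine that commits macrophages to the osteoclast fate. The 8 genes fall into 3 kinds of metabolism. Gatm and Nipsnap1 encode mitochondrial proteins, the former for creatine synthesis. Pcyt1b, Prelid3a and Fabp7 make or carry lipids, and B4galt4, Gcnt1 and Gbgt1 encode Golgi enzymes that extend the sugar chains of glycoproteins and glycolipids.

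The libraries held 37967542 to 61369441 counts. Bap1 itself was at 90.9% to 98.6% of the Bap1flox mean of the same library set in Bap1LysM BMMs and at 73.4% to 97.3% in Bap1LysM preOCs, and a count over the whole gene is not a check of the loxP-flanked part. Lyz2 was at 0.148% to 0.411% of the Bap1flox mean in 6 of the 8 Bap1LysM libraries. In the libraries labelled Bap1LysM replicate 1 it was at 45.7% (BMM) and 98.2% (preOC), so these 2 stand apart, and the genotype differences of the 8 genes and their Bap1LysM response to RANKL are also given without them. The study's methods give 1 LysM-Cre allele for Bap1LysM mice, and how many Cre alleles each library carried was not tested. Summed CPM (counts brought to the same library total, with TMM scaling factors of edgeR) of 10 osteoclast markers was 241 to 386 in BMMs and 6071 to 16401 in preOCs. All 8 macrophage markers were present in every group, and in BMMs 1 of the 8 passed the edgeR test by genotype, Mrc1, lower in Bap1LysM (log2 fold change -0.56, edgeR adjusted p = 0.0451). Summed neutrophil markers were at 76.2 to 240.2 CPM in Bap1flox and 214 to 308 in Bap1LysM BMMs, and 0 of the 7 tested passed the edgeR test (1 at an unadjusted p below 0.05). Summed stromal markers were at 489 to 2734 CPM in Bap1flox and 367 to 1285 in Bap1LysM BMMs with 0 of 5 past it, adjusted or unadjusted. In pairs of the same replicate number, 4 of the 5 stromal markers were lower in Bap1LysM in every pair (28.6% of all tested genes were) and 5 of the 7 neutrophil markers higher in every pair (29.0%). With replicate number as a block, Col1a1 (edgeR adjusted p = 0.0256), Col1a2 (0.0184) and Cxcl12 (0.0230) of the stromal list passed as lower, Cd14 (0.0244) passed as lower beside Mrc1, and 0 of 7 neutrophil markers passed (4 unadjusted). Of the B and plasma cell markers 2 were tested. Cd79b was lower in Bap1LysM BMMs (-1.05, edgeR adjusted p = 0.0363), and Jchain, above the filter in that group alone, was at 0.270 to 0.836 CPM in Bap1flox and 3.16 to 4.85 in Bap1LysM BMMs, while the summed level of the 6 listed was 6.11 to 7.69 CPM in Bap1flox and 6.94 to 8.49 in Bap1LysM. Their part in the results below was not tested, and in bulk RNA fewer cells of a type and less RNA per cell cannot be told apart.

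The DNA just before the start site is shown for 3 of the genes. Gbgt1 and Pcyt1b are the pair past the test in BMMs, and B4galt4 is the one with the most CpG dinucleotides. RefSeq promoter entries on GRCm38.p6 matched 7 of the 8, and Prelid3a had none. The 250 bases before the start site hold 1 CpG in Gbgt1 (chr2:28496641-28496890, plus strand), 1 in Pcyt1b (chrX:93654613-93654862, plus strand) and 19 in B4galt4 (chr16:38742009-38742258, plus strand). Capitals mark CpG, reading 5′ to 3′.
Gbgt1: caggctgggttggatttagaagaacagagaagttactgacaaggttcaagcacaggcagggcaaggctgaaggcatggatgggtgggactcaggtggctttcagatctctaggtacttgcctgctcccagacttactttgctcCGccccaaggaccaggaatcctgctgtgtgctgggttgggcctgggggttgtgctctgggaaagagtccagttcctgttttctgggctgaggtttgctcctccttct
Pcyt1b: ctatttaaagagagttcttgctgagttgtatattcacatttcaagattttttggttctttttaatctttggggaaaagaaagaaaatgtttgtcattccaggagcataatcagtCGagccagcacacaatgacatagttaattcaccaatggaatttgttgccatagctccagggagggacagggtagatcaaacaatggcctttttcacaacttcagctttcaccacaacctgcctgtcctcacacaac
B4galt4: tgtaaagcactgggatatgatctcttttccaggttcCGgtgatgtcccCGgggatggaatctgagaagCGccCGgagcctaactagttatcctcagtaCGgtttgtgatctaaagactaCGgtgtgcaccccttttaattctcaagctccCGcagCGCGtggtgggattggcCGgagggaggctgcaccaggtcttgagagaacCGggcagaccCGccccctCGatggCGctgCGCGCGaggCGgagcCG

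Across 14680 protein-coding promoters of the same length, again without chromosome 18, the median was 11 CpG, with quartiles of 3 and 19. Fabp7 held 4 CpG, Nipsnap1 6, Gcnt1 10 and Gatm 17, so the 7 promoters lay between the 6.66 and the 72.5 percentile of that range. On either strand, the AP-1 letters TGANTCA were in 0 of the 7 (6.10% of all promoters) and the E-box letters CACGTG in 0 (7.02%). The NFAT letters TTTCCA were in B4galt4 and Fabp7 (17.1% of all), and the PU.1 letters GAGGAAGT in Gcnt1 (2.27%). CCAAT was in Gatm, B4galt4, Pcyt1b and Fabp7 (36.3%). A match is a description of the letters only.

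To ask whether these genes already differed by genotype before RANKL, Bap1LysM and Bap1flox BMMs were set against each other over 13028 genes, using the quasi-likelihood test of edgeR and p-values adjusted by Benjamini and Hochberg. Gbgt1 and Pcyt1b were lower in Bap1LysM BMMs, and the other 6 did not pass this test, which held no replicate block. Thus 2 of 8 were called lower and 0 higher, while 4.01% of all tested genes were called lower and 5.32% in either direction. At an unadjusted p below 0.05 there were 5, beside 26.2% of all tested genes. Prelid3a passed the filter on low counts through the Bap1flox libraries alone, so its groups had to differ. Over the other 7 genes the log2 fold change was negative in 6, with a median of -0.78 against -0.0072 over all genes. In 5 of the 8 (Nipsnap1, Pcyt1b, B4galt4, Gcnt1 and Gbgt1) every Bap1LysM BMM library lay below every Bap1flox one, against 16.9% of all tested genes. The count of calls is not firm, since it was 0 when Bap1flox replicate 2, Bap1flox replicate 3 or Bap1LysM replicate 2 was left out, and 4 with replicate number as a block, in which 16.2% of all genes were called in either direction.

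**Figure D1:**
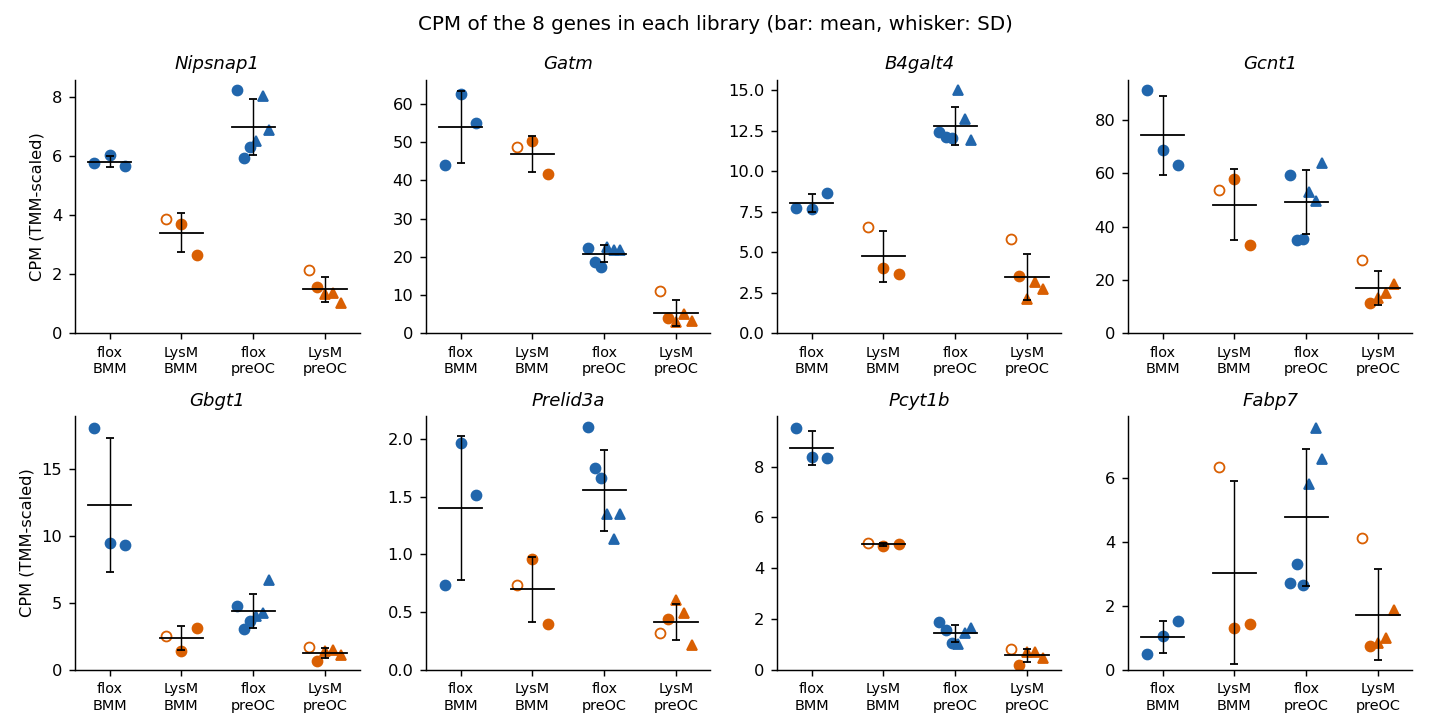
CPM of each of the 8 genes (y axis, linear from 0, own scale per panel) in the 17 libraries, by group on the x axis. Circles are replicates 1 to 3, triangles replicates 4 to 6, open orange circles the libraries labelled Bap1LysM replicate 1, bars the means and whiskers the SD. Pcyt1b steps down through the 4 groups without overlap, while Gatm BMMs of the 2 genotypes overlap.

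Gatm encodes glycine amidinotransferase, the mitochondrial enzyme that starts creatine synthesis. It lies at chr2:122594467-122611303 (GRCm38) on the minus strand. Its CPM was 43.9, 62.7 and 55.0 in Bap1flox BMM replicates 1, 2 and 3 and 48.8, 50.2 and 41.5 in Bap1LysM BMMs. The genotypes overlapped, and the log2 fold change of -0.22 (SE 0.15, 95% interval -0.57 to 0.14, edgeR adjusted p = 0.387) did not pass the test, nor did the -0.25 (adjusted p = 0.443) left without the library labelled Bap1LysM replicate 1. Bap1LysM BMMs kept a mean of 87.0% of the Bap1flox level. In preOCs the lowest, median and highest CPM were 17.3, 21.8 and 22.6 over the 6 Bap1flox libraries. The Bap1LysM preOC replicates 1, 2, 4, 5 and 6 had 10.99, 3.94, 2.98, 5.04 and 3.15 CPM, a mean of 25.2% of Bap1flox. Gatm thus ordered from Bap1flox BMMs through Bap1LysM BMMs and Bap1flox preOCs to Bap1LysM preOCs, and only the BMM groups overlapped among neighbours in that order.

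Nipsnap1, at chr11:4873951-4894200 on the plus strand, encodes a mitochondrial protein that has been linked to the clearance of damaged mitochondria. Its CPM was 5.75, 6.02 and 5.65 in Bap1flox BMMs and 3.86, 3.70 and 2.64 in Bap1LysM BMMs. All 3 Bap1LysM libraries were below all 3 controls, at a mean of 58.6%. This difference was -0.79 on the log2 scale (SE 0.19, edgeR adjusted p = 0.0623), just short of the threshold of 0.05. With replicate number as a block the adjusted p was 0.0356, and without the library labelled Bap1LysM replicate 1 the log2 fold change was -0.89 (adjusted p = 0.0860). In preOCs the Bap1flox libraries ranged from 5.94 to 8.22 CPM with a median of 6.70, and the Bap1LysM libraries were at 2.14, 1.55, 1.31, 1.37 and 1.03 CPM. Bap1flox preOCs overlapped Bap1flox BMMs, and below them came Bap1LysM BMMs and then Bap1LysM preOCs, apart from each other.

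Pcyt1b encodes the beta isoform of CCT, the enzyme that controls the rate of phosphatidylcholine synthesis from choline, and it lies at chrX:93654863-93749951 on the plus strand. It was at 9.51, 8.36 and 8.34 CPM in Bap1flox BMMs and at 4.99, 4.88 and 4.96 CPM in Bap1LysM BMMs. Each Bap1LysM library was therefore near 56.6% of the control mean, including the library labelled replicate 1 (57.2%). On the log2 scale this was -0.83 (SE 0.13, edgeR adjusted p = 0.0227), lower in 3 of 3 libraries, and -0.84 (adjusted p = 0.0491) without replicate 1. It missed the threshold in a fit of all 17 libraries (adjusted p = 0.0908) and when Bap1flox BMM replicate 1, 2 or 3 or Bap1LysM BMM replicate 2 was left out (up to 0.109). After RANKL the Bap1flox libraries held 0.995 to 1.86 CPM, median 1.51, and the Bap1LysM libraries 0.812, 0.197, 0.689, 0.684 and 0.450. These last rest on 8 to 41 counts per library, and Pcyt1b passed the preOC filter through the controls alone. Its 4 groups did not overlap anywhere.

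Prelid3a encodes a PRELI-domain protein, a family that carries phospholipids across the space between the mitochondrial membranes. It was low throughout, with 0.733, 1.96 and 1.51 CPM in Bap1flox BMMs and 0.738, 0.959 and 0.400 in Bap1LysM BMMs, or 20 to 88 counts per library. Bap1flox replicate 1 sat among the Bap1LysM libraries. The log2 fold change of -1.02 had a wide interval (-2.15 to 0.11) and an edgeR adjusted p of 0.226 (-1.06 and 0.316 without Bap1LysM replicate 1), and only Bap1flox libraries (2 of 3) were above the filter of 1 CPM. In preOCs Bap1flox libraries ranged from 1.13 to 2.10 CPM around a median of 1.505. Their Bap1LysM counterparts had 0.317, 0.443, 0.603, 0.494 and 0.212 CPM. Here the library labelled replicate 1 was not the highest of its group, unlike in the other 7 genes.

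Fabp7, at chr10:57784881-57788450 on the plus strand, encodes a fatty acid binding protein best known from the brain. It was the exception in BMMs, with 0.501, 1.07 and 1.51 CPM in Bap1flox and 6.35, 1.32 and 1.44 CPM in Bap1LysM libraries. The higher mean of the latter rested on the library labelled replicate 1, since the other 2 lay within the Bap1flox range. The log2 fold change of 1.54 (SE 0.72, edgeR adjusted p = 0.230) was 0.41 (adjusted p = 0.637) without it. In preOCs the Bap1flox libraries were at 2.70, 3.31 and 2.64 CPM in replicates 1 to 3 and at 5.81, 7.56 and 6.59 in replicates 4 to 6. Bap1LysM preOCs had 4.14, 0.738, 0.827, 1.01 and 1.88 CPM. Replicate 1 was above the 3 controls of its own library set, and the other 4 were below every control.

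B4galt4 encodes a galactosyltransferase that adds galactose to N-acetylglucosamine, and lies at chr16:38742264-38769049 on the plus strand, behind the promoter shown above. Its CPM was 7.75, 7.67 and 8.68 in Bap1flox BMMs and 6.57, 4.01 and 3.64 in Bap1LysM BMMs. All 3 Bap1LysM libraries were lower, with replicate 1 closest to the controls. The log2 fold change of -0.78 (SE 0.24, edgeR adjusted p = 0.108) did not pass, and became -1.08 (adjusted p = 0.0368) without replicate 1. Bap1flox preOCs held 11.9 to 15.01 CPM, median 12.3, and Bap1LysM preOCs 5.84, 3.52, 2.08, 3.17 and 2.72. The order was Bap1flox preOCs, Bap1flox BMMs, Bap1LysM BMMs and Bap1LysM preOCs, and only the last 2 overlapped.

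Gcnt1, at chr19:17326141-17356667 on the minus strand, encodes the core 2 enzyme that branches O-linked sugar chains. It was at 91.1, 68.7 and 63.1 CPM in Bap1flox BMMs against 53.7, 57.8 and 33.0 in Bap1LysM BMMs, with no overlap. As a log2 fold change this was -0.64 (SE 0.23, edgeR adjusted p = 0.145), and with replicate number as a block the adjusted p was 0.0333. Leaving out the library labelled Bap1LysM replicate 1 gave -0.72 (adjusted p = 0.182). In preOCs the 6 Bap1flox libraries ran from 35.0 to 64.0 CPM (median 51.2), and the Bap1LysM libraries had 27.3, 11.1, 12.97, 14.96 and 18.4 CPM. Bap1flox preOCs and Bap1LysM BMMs, with means of 49.3 ± 12.1 (SD, n = 6) and 48.2 ± 13.3 (SD, n = 3), overlapped in the middle of the order. Bap1flox preOCs also overlapped Bap1flox BMMs above them, at up to 64.0 CPM against 63.1 CPM in BMM replicate 3.

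Gbgt1 encodes the enzyme that adds a terminal N-acetylgalactosamine to globoside to form Forssman glycolipid. It lies at chr2:28496891-28505415 on the plus strand, behind the CpG-poor promoter above. It had the largest genotype difference of the 8 in BMMs, at 18.1, 9.45 and 9.36 CPM in Bap1flox and 2.53, 1.38 and 3.14 CPM in Bap1LysM libraries. The Bap1LysM mean was 19.1% of the control mean, with no overlap. This is a log2 fold change of -2.39 (SE 0.39, edgeR adjusted p = 0.0261), lower in 3 of 3 libraries. Without the library labelled Bap1LysM replicate 1 it was -2.45 (adjusted p = 0.0614), and without Bap1flox replicate 2 or 3 or Bap1LysM replicate 2 it also missed the threshold (0.0725 to 0.0939). In preOCs the Bap1flox libraries ranged from 3.05 to 6.70 CPM, median 4.14, and the Bap1LysM libraries were at 1.68, 0.689, 1.41, 1.44 and 1.08 CPM. Bap1LysM BMMs overlapped with both preOC groups, and Bap1flox BMMs stood above all others.

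**Figure D2:**
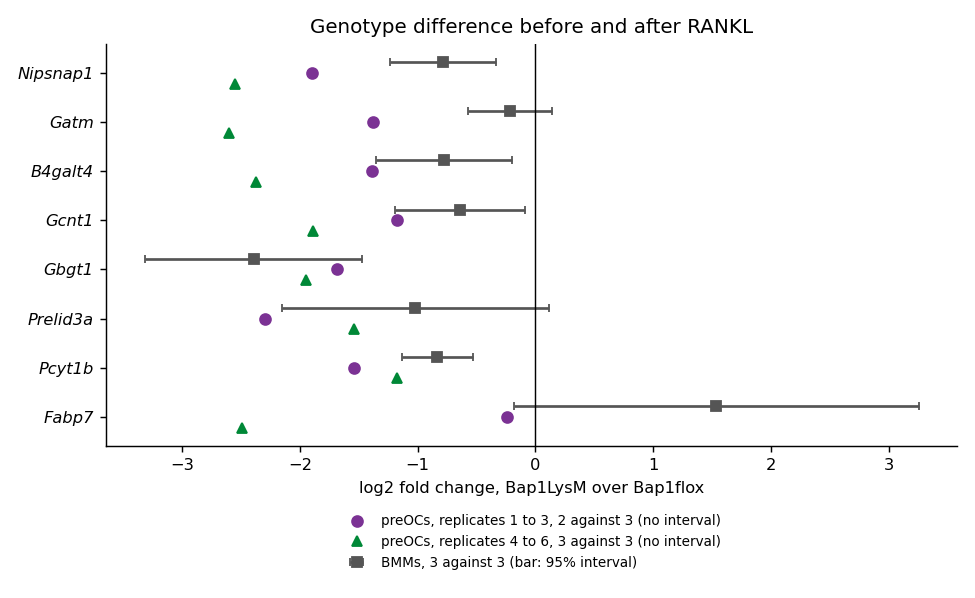
Log2 fold change of Bap1LysM over Bap1flox (x axis) for each gene in BMMs (squares, bars the 95% interval) and in preOC replicates 1 to 3 and 4 to 6 (circles and triangles, no interval). The BMM interval lies below 0 for 5 genes and spans it for Gatm, Prelid3a and Fabp7.

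The preOC comparison, which chose the genes, is described here without a test. The log2 fold changes were -2.26 (SE 0.20) for Nipsnap1, -2.01 (SE 0.32) for Gatm, -1.93 (SE 0.29) for Prelid3a and -1.91 (SE 0.24) for B4galt4. They were -1.83 (SE 0.26) for Gbgt1, -1.57 (SE 0.25) for Gcnt1, -1.49 (SE 0.49) for Fabp7 and -1.35 (SE 0.33) for Pcyt1b. A log fold change of 1.5 was part of the study's choice. In this fit Gcnt1 is the gene just inside it, while Fabp7 and Pcyt1b fall short of it. The genotypes did not overlap in 7 of 8, Fabp7 being the exception, where 5.38% of all tested genes did not (4.11% for higher). This count was fixed by the choice of the genes, and Prelid3a and Pcyt1b also passed the preOC filter through the Bap1flox libraries alone. Over all tested genes 15.8% were called in either direction, 8.68% lower and 7.12% higher. Markers of neutrophils moved with genotype in the same libraries. Their summed level was 61.5 to 179 CPM in Bap1flox and 170 to 615 CPM in Bap1LysM preOCs, and 6 of the 7 tested were higher by edgeR, among them S100a9 (1.57, adjusted p = 0.0138), Camp (1.63, 0.0176) and Ltf (1.54, 0.00986). Jchain, again above the filter in Bap1LysM alone, was at 0.0963 to 0.755 CPM in Bap1flox and 4.77 to 7.92 CPM in Bap1LysM preOCs, with the B and plasma cell markers summing to 1.94 to 3.93 CPM in Bap1flox and 6.06 to 10.11 CPM in Bap1LysM. Of the other lists, 2 of 8 macrophage markers (Csf1r and Mertk) and the 1 dendritic marker tested (Zbtb46) were higher, 1 of 10 osteoclast markers (Dcstamp) was lower, and 0 of 5 stromal markers passed, adjusted or unadjusted. The part of these cells in the values of the 8 genes was not tested.

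The difference in preOCs is given by library set as well, and in replicates 1 to 3 it rests on 2 Bap1LysM libraries that differ from each other. In replicates 1 to 3 the log2 fold change was -1.38 for Gatm, -1.39 for B4galt4, -1.90 for Nipsnap1 and -0.24 for Fabp7. In replicates 4 to 6 the same genes had -2.60, -2.37, -2.55 and -2.49. Gcnt1 had -1.18 and -1.89 and Gbgt1 -1.68 and -1.95, while Prelid3a (-2.29 and -1.54) and Pcyt1b (-1.54 and -1.18) were further from 0 in replicates 1 to 3. The sets differ in mitochondrially encoded counts, with 0.481% to 1.07% of the total for replicates 1 to 3 but 2.36% to 5.26% for the later numbers, and the Bap1LysM libraries of the former include replicate 1. Relative to the Bap1flox mean of the same set, that library was at 56.6% for Gatm, 143% for Fabp7 and 63.1% for Gcnt1. Bap1LysM replicate 2 of the same set was at 20.3%, 25.6% and 25.7%, which lies within the range of replicates 4 to 6 for these 3 genes (13.5% to 22.8%, 12.4% to 28.2% and 23.4% to 33.2%). For Nipsnap1 and B4galt4 replicate 2 was at 22.7% and 28.8%, above replicates 4 to 6 (14.5% to 19.2% and 15.6% to 23.7%). Whether the sets differ was not tested. Without the library labelled replicate 1 the preOC log2 fold changes of the 8 genes ran from -2.50 (Gatm) to -1.53 (Pcyt1b), with Fabp7 at -2.15.

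Set side by side, the Bap1LysM mean as a share of the Bap1flox mean was 87.0% in BMMs and 25.2% in preOCs for Gatm, 58.6% and 21.2% for Nipsnap1 and 59.0% and 27.1% for B4galt4. For Gcnt1 it was 64.8% and 34.3%, for Prelid3a 49.8% and 26.6% and for Pcyt1b 56.6% and 39.6%. Gbgt1 was the only one of the 8 with the lower share in BMMs, 19.1% against 28.7% in preOCs. Fabp7 was at 295% in BMMs and 36.0% in preOCs, and at 134% and 23.3% without the libraries labelled Bap1LysM replicate 1. Without them the shares of the other 7 genes moved by less than 1.5 times. Whether the genotype difference itself differs between the stages was not tested, since the preOC side chose the genes.

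To ask what RANKL did to these genes in control cells, Bap1flox preOC replicates 1 to 3 were compared with Bap1flox BMM replicates 1 to 3 over 13415 genes. Pcyt1b, Gbgt1, Gatm and Gcnt1 fell with RANKL, and Fabp7 and B4galt4 rose. Most tested genes differed between the stages, with 64.6% called (32.9% lower and 31.7% higher), so 4 lower and 2 higher of 8 is near that background. Groups did not overlap for those 6 genes, 4 lower and 2 higher, against 35.8% and 35.5% of all genes. The Bap1flox preOC libraries also took part in the choice of the genes, so their levels are not independent of it. Between these stages all 8 macrophage markers fell. Of the 10 osteoclast markers, 6 were above the filter in both stages and rose, and Calcr, Dcstamp, Ocstamp and Oscar were above it in preOCs alone, so their stages had to differ. Cd79b, the 1 B and plasma cell marker tested, fell by 1.77 on the log2 scale (edgeR adjusted p = 0.00104), while 0 of 7 neutrophil and 0 of 5 stromal markers passed the edgeR test, adjusted or unadjusted. With replicate number as a block, 5 of the 7 neutrophil markers (S100a8, S100a9, Ltf, Camp and Ngp) and Cxcl12 of the stromal list passed as lower in preOCs, and the dendritic marker Zbtb46 as higher.

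Pcyt1b had the largest change, from a mean of 8.74 ± 0.667 CPM in BMMs to 1.49 ± 0.406 in preOCs (SD, n = 3 each), a log2 fold change of -2.56 (SE 0.22, edgeR adjusted p = 8.3e-05). Gbgt1 went from 12.3 ± 5.00 to 3.82 ± 0.869 CPM (log2 fold change -1.70, SE 0.30, edgeR adjusted p = 0.00228). Gatm went from 53.9 ± 9.43 to 19.4 ± 2.65 CPM (log2 fold change -1.48, SE 0.16, edgeR adjusted p = 0.000208). Each of these 3 was lower in 3 of 3 preOC libraries and in every alternative run. Gcnt1 fell from 74.3 ± 14.8 to 43.2 ± 13.97 CPM (log2 fold change -0.79, SE 0.24, edgeR adjusted p = 0.0218), and missed the threshold without Bap1flox BMM replicate 1, preOC replicate 2 or preOC replicate 3 (0.0543 to 0.0764) and in a fit of all 17 libraries (0.0784). In the other direction, B4galt4 rose from 8.03 ± 0.561 to 12.2 ± 0.178 CPM (log2 fold change 0.59, SE 0.10, edgeR adjusted p = 0.0017). Fabp7 rose from 1.03 ± 0.507 to 2.88 ± 0.370 CPM (log2 fold change 1.47, SE 0.38, edgeR adjusted p = 0.0123). Nipsnap1 (0.22, 95% interval -0.15 to 0.59, edgeR adjusted p = 0.250) and Prelid3a (0.38, interval -0.48 to 1.24, edgeR adjusted p = 0.385) did not pass.

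**Figure D3:**
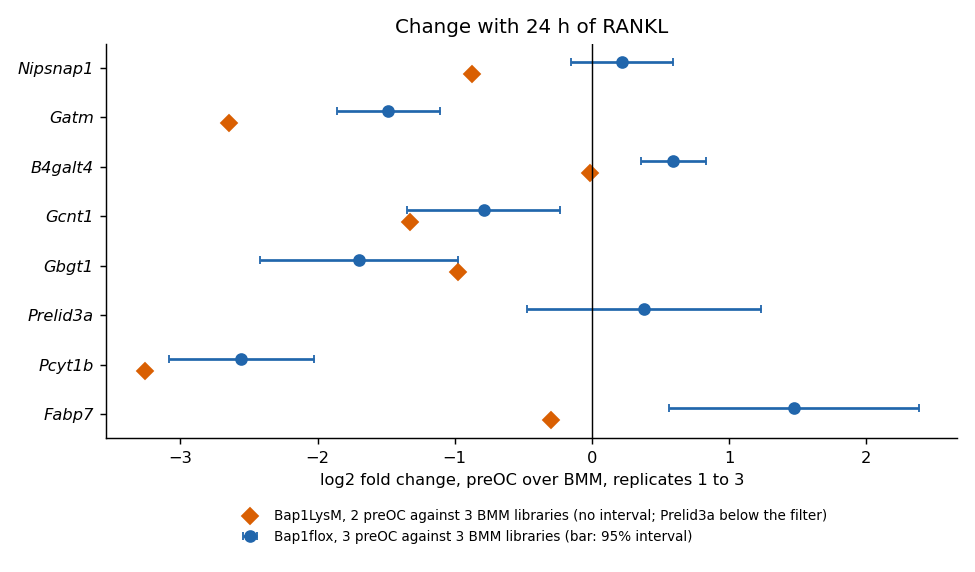
Log2 fold change of preOCs over BMMs (x axis) in replicates 1 to 3 of Bap1flox (circles, bars the 95% interval) and Bap1LysM (diamonds, no interval, no test). Prelid3a has no diamond because it was under the filter in Bap1LysM libraries. The Bap1flox interval lies below 0 for 4 genes and above it for B4galt4 and Fabp7.

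For Bap1LysM cells the same change is given as values only, since low Bap1LysM preOC levels chose the genes and only replicates 1 and 2 have preOC libraries. The log2 fold change was -3.26 (SE 0.57) for Pcyt1b, -2.64 (SE 0.44) for Gatm, -1.32 (SE 0.43) for Gcnt1 and -0.98 (SE 0.54) for Gbgt1, the genes that fell in controls. It was -0.88 (SE 0.31) for Nipsnap1, -0.01 (SE 0.37) for B4galt4 and -0.30 (SE 0.96) for Fabp7. Without the libraries labelled replicate 1, which leaves 1 preOC library, it was -4.60 for Pcyt1b, -3.52 for Gatm, -2.005 for Gcnt1, -1.69 for Gbgt1, -1.01 for Nipsnap1, -0.88 for Fabp7 and -0.098 for B4galt4. Prelid3a went from 0.699 ± 0.281 CPM (SD, n = 3) to 0.317 and 0.443 CPM. For B4galt4 and Fabp7, then, control cells rose with RANKL while the Bap1LysM values were near or below 0, and that difference was not tested.

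Levels between genes were compared per length, as RPKM (CPM per kilobase of transcript). In Bap1flox BMMs the mean RPKM was 17.9 for Gatm, 13.3 for Gcnt1 and 9.19 for Gbgt1, then 2.65 for B4galt4, 2.19 for Nipsnap1, 1.63 for Pcyt1b, 0.823 for Fabp7 and 0.647 for Prelid3a. Several of the low ones have a relative at a far higher level in the same cells. Pcyt1a, the alpha isoform of CCT, was at 28.0 RPKM, B4galt1 at 57.5, Fabp5 at 75.2, Prelid3b at 16.0 and Nipsnap2 at 17.9. For Gcnt1 it was the reverse, with Gcnt2 at 0.344 RPKM. In Bap1LysM preOCs the 8 genes ran from 3.04 RPKM (Gcnt1) to 0.106 (Pcyt1b), while Pcyt1a stood at 27.8 RPKM and B4galt1 at 53.6.

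Other genes of the same families and pathways were examined in BMMs. Of 64 such relatives in 8 lists, 46 were tested, and 3 were called higher and 5 lower by genotype. That is 17.4% of those tested, beside 5.32% of all genes (1.31% higher and 4.01% lower), and at an unadjusted p below 0.05 there were 19 of 46, or 41.3%, beside 26.2%. Their median log2 fold change was -0.046 against -0.0072 over all genes, and no test of the lists was run. The nearest relatives Pcyt1a (-0.43, edgeR adjusted p = 0.115), B4galt1 (-0.02, 0.894), Gcnt2 (-0.17, 0.736), Fabp5 (-0.11, 0.883) and Nipsnap2 (0.10, 0.384) did not pass. Pcyt1a passed as lower with replicate number as a block (0.0272) and in a fit of all 17 libraries (0.0348). Prelid3b (0.39, edgeR adjusted p = 0.0491) and Nipsnap3b (0.41, 0.0499) were higher in Bap1LysM BMMs, by under 1.5-fold.

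Glycolipid synthesis gave 1 gene higher and 2 lower of 6 tested. St3gal5, which makes the ganglioside GM3, rose from 59.2 ± 9.79 to 160 ± 33.0 CPM (SD, n = 3 each, log2 fold change 1.42, SE 0.19, edgeR adjusted p = 0.0183). Ugcg, which makes glucosylceramide at the head of the pathway, was lower (-0.73, SE 0.15, edgeR adjusted p = 0.0471), and so was the ganglioside enzyme B4galnt1 (-0.62, SE 0.09, 0.0215). Among relatives of B4galt4, B4galt3 was lower (-0.74, SE 0.11, edgeR adjusted p = 0.0235) and the other 5 did not pass. In the list of O-glycan enzymes around Gcnt1, B3gnt3, which extends core 1 chains, was lower (-0.68, SE 0.07, edgeR adjusted p = 0.0121) and the other 4 did not pass. In the phosphatidylcholine and phosphatidylethanolamine list, 1 of 11 passed, the choline transporter-like gene Slc44a2 (-0.53, SE 0.08, edgeR adjusted p = 0.0221). In the creatine list 0 of 3 passed (2 at an unadjusted p below 0.05) and in the fatty acid binding list 0 of 3 (1 unadjusted), where Fabp3 had a log2 fold change of 1.20 (edgeR adjusted p = 0.0591, and 0.0129 with replicate number as a block). Each of the 8 calls among relatives was lost when at least 1 library was left out, with the highest adjusted p from 0.0758 (B3gnt3) to 0.192 (Nipsnap3b), and those of Ugcg and Prelid3b were lost whichever library was left out. Some were lost in other alternatives too, B3gnt3 (0.183) and Slc44a2 (0.0730) in a fit of all 17 libraries, Nipsnap3b and Prelid3b with upper-quartile factors (0.0527 and 0.0574), and Nipsnap3b (0.0717), Prelid3b (0.0691) and Ugcg (0.0531) with the low filter of 10 counts in total. Their directions were kept.

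**Figure D4:**
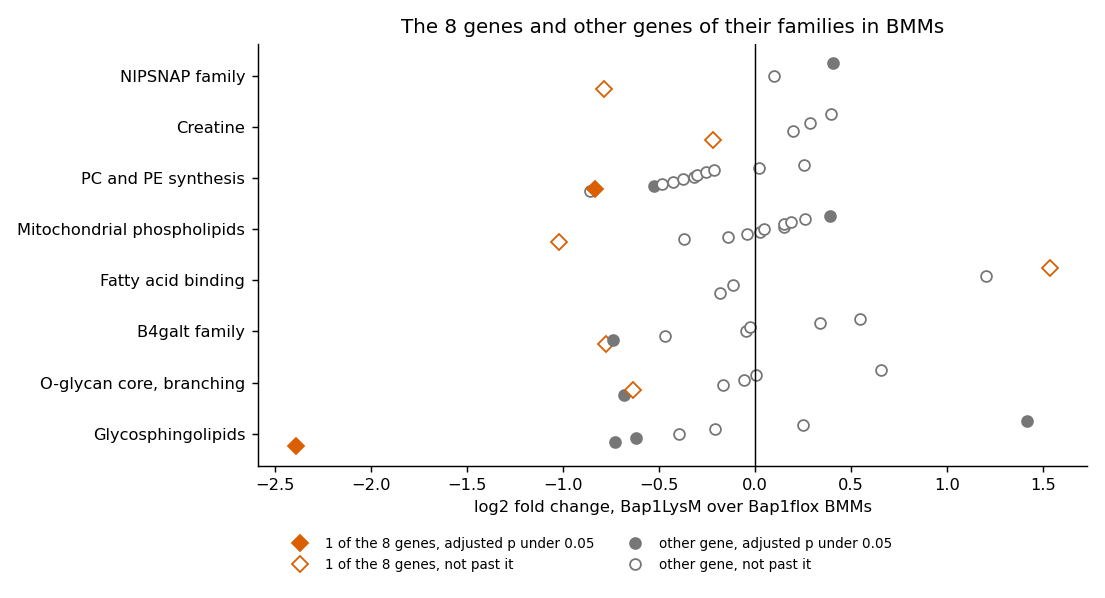
Log2 fold change of Bap1LysM over Bap1flox BMMs (x axis) for the 8 genes (diamonds) and the tested genes of their families (circles), 1 row per list. Filled symbols passed the adjusted p. Gbgt1 is the lowest of all at -2.39, and among the relatives St3gal5 is the highest at 1.42.

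With RANKL in Bap1flox cells, 14 of 47 tested relatives rose and 16 fell, which is near the shares of all genes. In the creatine list 3 of 4 rose while Gatm fell. The creatine transporter Slc6a8 rose by 1.33 on the log2 scale (edgeR adjusted p = 1.4e-05) and brain creatine kinase Ckb by 1.43 (3.7e-05). The other of the 3, mitochondrial creatine kinase Ckmt1, was above the filter in preOCs alone, so its groups had to differ. It was at 0, 0.0446 and 0.0398 CPM in Bap1flox BMM replicates 1, 2 and 3 and at 1.72, 4.00 and 2.45 CPM in the preOC libraries of the same numbers. Gamt, the enzyme after Gatm, fell by 0.32 (edgeR adjusted p = 0.0352, and past the threshold in 2 of 6 fits with a library left out). In the phosphatidylcholine list 3 rose and 5 fell of 11. Slc44a1, a choline transporter, rose by 1.55 (edgeR adjusted p = 0.00322) and Pemt, which makes phosphatidylcholine by methylation, by 1.44 (0.000418). The choline kinase Chkb fell by 1.19 (5.98e-05), Slc44a2 fell by 0.79 (0.00012) and Cept1 fell by 0.62 (0.00219). Pcyt1a, unlike Pcyt1b, did not pass (-0.07, edgeR adjusted p = 0.705).

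Of the mitochondrial phospholipid genes 5 rose and 3 fell of 10, Prelid3b most (1.28, edgeR adjusted p = 9.1e-06), with Tamm41 (0.65, 0.00159) and Ptpmt1 (0.62, 0.00169) of cardiolipin synthesis. Selenoi, of phosphatidylethanolamine synthesis, rose by 0.60 (edgeR adjusted p = 0.000572). Fabp3 fell by 1.67 (0.000581) where Fabp7 rose. Of the B4galt relatives B4galt6 alone passed, and it fell by 1.64 (edgeR adjusted p = 2.3e-05). St3gal1, which caps core 1 chains with sialic acid, rose by 1.85 (6.2e-06), and B3gnt3 fell by 1.10 (0.00299). In glycolipid synthesis B4galnt1 rose by 0.74 (edgeR adjusted p = 0.000179), while B3galnt1, the globoside enzyme just before Gbgt1, fell by 1.56 (6.8e-05) and B3galt4 fell by 0.87 (0.000429).

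Finally, the genes with the most similar profile were listed for each member by the root mean square difference of centred log2 CPM over the 17 libraries, among 13810 genes. The closest match was Dnajc12 to B4galt4 (0.256), followed by Dnajc18 to Gcnt1 (0.297) and Adat2 to Nipsnap1 (0.306). Smpd5 was nearest to Gbgt1 (0.405), Dab2 to Pcyt1b (0.408), Cped1 to Gatm (0.429) and Rassf7 to Prelid3a (0.461). Fabp7 had no close match, with Cdca7l nearest at 0.780. The next in each list were Slc30a4, Tex9, Ripk3, Slc25a23, Itga6, Acvrl1, Gfod2 and Ssx2ip in the same order of members. Among the 8 themselves, Nipsnap1 and B4galt4 were the nearest pair (0.365) and Pcyt1b and Fabp7 the farthest apart (2.01). This ordering describes profiles in libraries that include those used to choose the genes.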

How the data were processed

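The 17 mouse libraries were grouped by genotype and culture from their labels. Per the study's methods, poly(A) RNA was selected on oligo-dT beads, and cDNA was primed with random hexamers. The authors aligned reads to GRCm38 (Ensembl) with STAR 2.5.1a and assigned each read with a unique, unambiguous position to its gene with featureCounts 1.4.6-p5 (versions from the submitters' processing notes). Whether strand was used in counting is not given in the sources used here, so overlapping antisense genes cannot be told apart. The deposited counts per gene are whole numbers and not normalized. The deposited CPM equals the count over the library total and the deposited RPKM equals CPM over gene length. Both were used only to check the counts, and the CPM and RPKM printed here were recomputed from counts with TMM factors over all 17 libraries.

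Of 41388 gene rows, 355 ribosomal RNA genes were left out, and 0 rows named no gene. Symbols came from GENCODE M21 (40254 matched), and 33148 starts were the same. Genotypes and stages were tested in edgeR 4.0.16 under R 4.3.3 (quasi-likelihood test, TMM, Benjamini-Hochberg over all genes tested, threshold 0.05), among genes above 1 CPM in at least 2 of 6 (BMM and RANKL comparisons) or 4 of 11 (preOC) libraries. With 37967542 to 61369441 counts per library, the spread between libraries sets the precision of most of these genes (biological coefficient of variation 0.207 in BMMs, 0.166 in the RANKL comparison). For Prelid3a and for Pcyt1b in preOCs, counting error adds to it.

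The genes, the family lists and the marker lists were chosen with earlier results of these data known. The genes named are the 8 in every library, list genes past the test with a fold change of at least 1.5, the nearest relatives, and the 2 genes closest in profile to each (log2 CPM, prior count 2). Slc44a2, Nipsnap3b, Prelid3b, Fabp3 in BMMs and Gamt were named after their values were seen. Promoters are RefSeq entries within 500 bases of the annotated start, the nearest for each gene, with chromosome 18 left out.

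Replicate numbers were checked for pairing through the departures from the group mean in libraries that share a number. Their correlations were 0.54, 0.36 and 0.41 in BMMs and 0.37, 0.24 and 0.32 between Bap1flox stages, so the numbers were taken to pair the libraries. The main tests were still run without a block, as planned, and a block was an alternative. Between Bap1flox stages replicate 2 correlated slightly better with another number (0.25). In preOCs the correlations were 0.61, 0.73, 0.39, 0.67 and 0.48, but 3 of the 5 correlated as well with another number. Other alternatives were voomWithQualityWeights (limma 3.58.1), DESeq2 1.42.0, RLE and upper-quartile factors, a filter of 10 counts in total, all libraries in a single fit, each library set alone and each library left out. The Bap1LysM response to RANKL without replicate 1 was added after the data were seen. In a test on simulated data with 200 changed genes, edgeR recovered 63.3% at a log2 fold change of 1 and 98.0% at 2 among 12843 BMM genes, with 7.60% of calls false. For the RANKL comparison (13156 genes) it recovered 73.5% and 94.8%, with 2.96% false. Figures used matplotlib 3.10.9 in python 3.11.15.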

Additional observations from a re-analysis of the deposited data

Results flagged for a closer look

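Gatm in the library labelled Bap1LysM preOC replicate 1 lay far from the other 4 of its group, at 10.99 CPM against 2.98 to 5.04 CPM. Of the 16 groups examined in this way, chance alone gives about 0.8 that stand out (about 1 in 20). Nipsnap1 had every Bap1flox preOC library of replicates 1 to 3 on the higher side and every Bap1LysM one on the lower side of the BMM mean, with mean changes of 1.02 CPM and -1.56 CPM. Prelid3a showed the same for means of 0.435 CPM and -0.319 CPM. These differences in the response to RANKL were not tested, since low Bap1LysM preOC levels chose the genes.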

How the results depend on the processing

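In BMMs, 693 genes were called by edgeR, and 1772 by voomWithQualityWeights, 2065 by DESeq2, 2107 with replicate number as a block and 1991 with all 17 libraries in the fit. Of these calls 24.7% were higher in Bap1LysM by edgeR, and 40.7%, 42.6%, 33.8% and 50.3% in the same order of alternatives. With a library left out the count ran from 4 to 756. Of the 8 genes, 2 were called lower, and 4 by voomWithQualityWeights, by DESeq2 and with the block, and 0 to 2 with a library left out. Nipsnap1 passed by voomWithQualityWeights (0.0278), DESeq2 (0.00737), the block (0.0356) and all libraries (0.0243). B4galt4 passed by voomWithQualityWeights (0.0303) and DESeq2 (0.0346), and Gcnt1 with the block (0.0333). Among relatives near 0, the sign in BMMs turned with a library left out for Gcnt2 (-0.41 to 0.023), B4galt1 (-0.092 to 0.062) and Fabp5 (-0.80 to 0.19). With RANKL it turned for Pcyt1a, to 0.13 by voomWithQualityWeights, 0.0035 with the low filter and 0.049 with all 6 preOC libraries, and it ran from -0.13 to 0.13 with a library left out. Over all alternatives the direction of every one of the 8 genes in BMMs, with RANKL and in preOCs was kept, though Prelid3a gave no BMM value in 2 of the 6 fits with a library left out because it was under the filter. The block changed no other call of the 8 genes. In preOCs the median log2 fold change of the 8 genes was -1.87, from -1.47 (replicates 1 to 3) to -2.16 (replicates 4 to 6). The causes of these shifts were not tested. Depth limits Prelid3a, at 8 to 105 counts per library, and Pcyt1b in Bap1LysM preOCs.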
